A study of Mus musculus with 18 samples.

Results

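Migratory dendritic cells of mouse skin were followed through the first days of skin expansion. They were chosen by their UMI counts (unique molecular identifiers, which count captured RNA molecules): at least 1 UMI each of Ccr7 and Fscn1, at least 4 UMIs of Ccr7, Fscn1 and Ccl22 together, and at least 5 UMIs of the MHC class II genes H2-Aa, H2-Ab1 and Cd74. Cells with any UMI of Cd3d, Cd3e or Cd3g, with 2 or more of Cd207, with 2 or more of Xcr1 and Clec9a, or with 1% or more of their UMIs from Col1a1 and Col1a2 were left out. The rule found 196 cells among 47251 kept cells, 86 of 29676 in control skin and 110 of 17575 in expanded skin. Control and expanded mice both had surgery under the back skin, and a hydrogel expander was placed only in the expanded mice. Unfractionated living skin cells were sequenced by 10x Genomics 3' chemistry after 1, 2 or 4 days, in 5 control and 5 expanded libraries that form pairs by day and sequencing round. Strain, sex and age were not given in the sources used here, and each library pooled the mice of its arm.

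Dendritic cells take up antigen in the skin and show it to T cells. On maturation they switch on Ccr7, the receptor for the lymphatic chemokines CCL19 and CCL21, and leave through lymph vessels for the draining lymph node. Fscn1 encodes fascin, which bundles actin in their long processes, and Ccl22 encodes a chemokine that attracts T cells bearing CCR4. The same programme raises costimulatory molecules together with inhibitory ligands such as PD-L1.

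The rule genes are given as a description only. They were not removed from any fit but were kept out of every count of called genes. Ccr7 had a median of 29.5 UMIs per cell (1 to 155), Fscn1 14 (1 to 138) and Ccl22 7.5 (quartiles 1 and 25.25), and 35 of the 196 cells had no Ccl22 UMI. The sum of the 3 genes had a median of 65 UMIs. Only 6 cells stood at the limit of 4 UMIs, and 2 cells that met every other condition stood at 3. A separate set of 12690 cells had 1% or more of their UMIs from Col1a1 and Col1a2 and should lack the programme. Cells with at least 3 UMIs of the immune genes Ptprc, Laptm5, Coro1a and Cd52 were left out of it. Of this set, 0.252% had a Ccr7 UMI, 0.284% a Ccl22 UMI and 22.5% a Fscn1 UMI, so Fscn1 alone did not mark the population. That set had a median depth of 11193.5 UMIs, against 12731.5 in the migratory cells, and 1 of its cells met the condition on the 3 genes. With immune cells included, 11 collagen-rich cells met every other condition of the rule, so these values describe collagen-rich cells without immune UMIs only. Flt3 and Zbtb46, which mark dendritic cells in general and were not in the rule, were higher in the migratory cells than in the dermal dendritic cells described below.

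The libraries held 17726739 to 75470722 gene UMIs and 1927 to 8312 kept cells. Control libraries gave 17, 24, 2, 23 and 20 migratory cells in the order day 1 round 1, day 1 round 2, day 2 round 1, day 2 round 2 and day 4, and the expanded libraries gave 5, 32, 27, 9 and 37. No 2 migratory cells shared a barcode between libraries, and 0 to 18 kept barcodes were shared in the 45 pairs of libraries. Of the migratory cells, 14 were called doublets, 2 by Scrublet and 12 for carrying more than 1 hashtag. Scrublet marked 0.0584% to 2.97% of the cells of a library, so it found few doublets in some libraries.

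Ccl22 and Ccl17 encode the ligands of CCR4 and are neighbours on chromosome 8. Their promoter windows are shown because Ccl22 helped to choose the cells while Ccl17, outside the rule, fell in expanded skin. Each window runs from 250 bases before the gene start to 50 bases after it in RefSeq, build GRCm38.p6, plus strand. The Ccl22 window is chr8:94745434-94745733 and the Ccl17 window is chr8:94810203-94810502. Capitals mark GGGNNNNNCC on either strand, a loose form of the NF-kappaB motif.
Ccl22: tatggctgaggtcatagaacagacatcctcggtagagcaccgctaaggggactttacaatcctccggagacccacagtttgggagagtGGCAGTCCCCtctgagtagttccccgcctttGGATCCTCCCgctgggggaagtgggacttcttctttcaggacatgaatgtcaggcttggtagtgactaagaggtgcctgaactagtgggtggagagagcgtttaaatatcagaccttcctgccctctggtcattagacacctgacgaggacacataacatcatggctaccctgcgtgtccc
Ccl17: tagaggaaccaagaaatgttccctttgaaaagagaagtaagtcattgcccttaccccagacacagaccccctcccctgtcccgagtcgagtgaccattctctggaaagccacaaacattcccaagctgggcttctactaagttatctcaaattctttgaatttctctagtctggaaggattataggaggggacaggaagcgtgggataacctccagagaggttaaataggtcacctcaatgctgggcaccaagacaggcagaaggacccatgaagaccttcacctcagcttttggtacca
The Ccl22 window held 2 matches and the Ccl17 window held 0. Of 32851 promoter windows of 300 bases, 50.8% held at least 1 match, so a match in a window is common. A match describes letters only and is not a binding site.

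Migratory cells made up a larger part of the MHC class II cells of expanded skin. Their share of the 6524 cells that met the conditions on MHC class II and on the excluded lineages was 2.20%, 2.26%, 0.488%, 2.14% and 1.43% in the control libraries, in the order above. In the expanded libraries it was 2.36%, 8.42%, 6.26%, 4.05% and 6.57%. The lowest expanded library lay above the highest control library, but by little, and both belonged to day 1. The mean rose from 1.70% ± 0.757 (SD, n = 5) to 5.53% ± 2.36 (SD, n = 5), a 3.25-fold difference (exact two-sided permutation test, p = 0.00794, the smallest that 5 against 5 libraries allow; Benjamini-Hochberg adjusted over 3 denominators, p = 0.0238), with 5 of 5 pairs higher. When arms were exchanged only inside each pair, the exact p was 0.0625, the smallest that 5 pairs allow, and the adjusted p was 0.1875. With every cell thinned to 2000 UMIs (2541 control and 1061 expanded cells were too shallow), the means were 1.15% and 4.58% (exact permutation, adjusted p = 0.0238). The pool of MHC class II cells was itself 16.4% ± 3.04 (SD, n = 5) of kept cells in control and 10.9% ± 4.12 (SD, n = 5) in expanded skin.

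Over all kept cells and over immune cells the difference was smaller than the spread allowed the test to call. Among kept cells the share was 0.266% ± 0.109 (SD, n = 5) in control and 0.611% ± 0.345 (SD, n = 5) in expanded libraries, higher in 4 of 5 pairs (exact permutation p = 0.0635, adjusted 0.0952). Among immune cells, those with at least 3 UMIs of Ptprc, Laptm5, Coro1a and Cd52, the control mean was 0.884% ± 0.325 and the expanded mean 1.43% ± 0.711 (SD over 5 libraries in either arm; exact permutation p = 0.159, unchanged by adjustment). Day 1 round 1 was the pair that went the other way for both denominators, with 17 control and 5 expanded migratory cells. Without its expanded library both shares passed, with differences of 0.456 and 0.734 percentage points (exact permutation, adjusted p = 0.0238 and 0.0317), and without expanded day 4 the difference among immune cells was 0.260 points, against 0.543 with all libraries. A gain in migratory cells and a loss of other MHC class II cells cannot be told apart from these shares.

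The balance against resident cells moved further. Dermal dendritic cells were defined by at least 1 UMI each of Cd209a and Mgl2, at least 4 together, no Ccr7 and fewer than 3 UMIs of the C1q genes, and numbered 1113 in control and 218 in expanded skin. They were 4.01% ± 1.02 (SD, n = 5) of kept control cells and 1.23% ± 0.591 (SD, n = 5) of kept expanded cells. Of both kinds together, migratory cells were 6.78% ± 3.37 (SD, n = 5) in control and 34.9% ± 17.7 (SD, n = 5) in expanded libraries, higher in 4 of 5 pairs (exact permutation p = 0.0317, a denominator chosen after the data were seen). The exception was again day 1 round 1, at 7.73% in control and 7.04% in expanded skin. With arms exchanged inside the pairs only, the exact p was 0.125, and leaving out any of 6 of the 10 libraries gave an exact p of 0.0635.

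Hashing antibodies told 28 mice apart in 8 libraries, 14 per arm, and 162 of the 174 migratory cells in those libraries could be given to a mouse. Per mouse, the share of MHC class II cells ran from 0% to 3.70% with a median of 1.38% in control and from 0% to 12.0% with a median of 5.0% in expanded mice. The control mean was 1.37% ± 1.21 and the expanded mean 5.28% ± 3.90 (SD over 14 mice per arm; two-sided permutation of mice of the same day and round, p = 0.00089). Mice of an arm in a day and round share 1 pooled library, so effects of the library and of the arm cannot be told apart by permuting mice. On day 4 every expanded mouse, at 5.56% to 11.8%, lay above every control mouse, at 0% to 2.27% (exact permutation p = 0.0286, the smallest that 4 against 4 allow). On day 2 the control mean was 1.37% ± 1.44 and the expanded mean 4.59% ± 3.77 (SD over 7 mice per arm; exact permutation p = 0.0457). On day 1 the arms overlapped: the control mice stood at 1.32%, 2.65% and 0% and the expanded mice at 2.13%, 0% and 10.5% (exact permutation p = 0.7, smallest possible 0.1). A single mouse gave 29 of the 30 assigned migratory cells of the expanded library of day 1 round 2, so the value of that library rests on 1 animal.

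**Figure D1:**
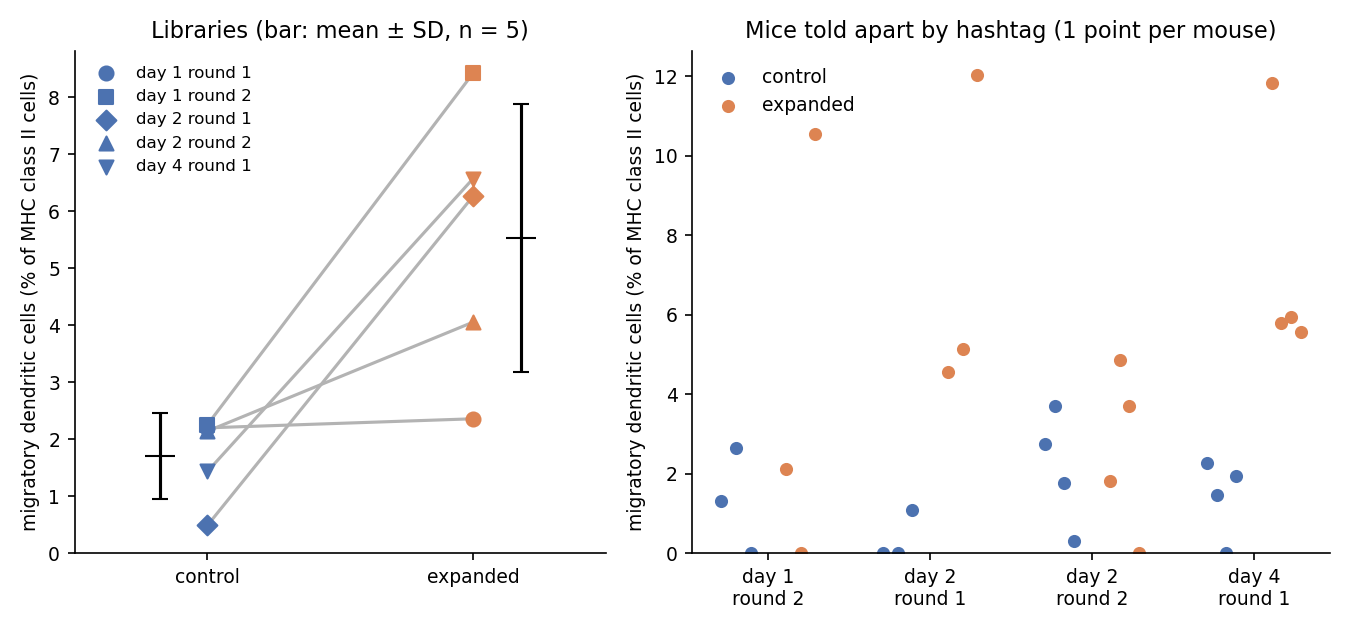
Migratory dendritic cells as a percentage of MHC class II cells. Left, 1 point per library, grey lines join the control and expanded library of a day and round, and black bars give the mean ± SD of 5 libraries; the control libraries sit between 0.488% and 2.26% and the expanded libraries between 2.36% and 8.42%. Right, 1 point per hashed mouse by day and round; all 4 expanded mice of day 4 lie above the 4 control mice.

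Against dermal dendritic cells of the same libraries, the migratory cells carried the maturation programme. Libraries with at least 10 cells of both kinds entered, 4 control and 3 expanded, with 180 migratory and 1124 dermal cells. UMIs were summed per library and kind and tested with edgeR with the library as a block. The genes of either definition stayed in the fit and were left out of the counts of genes tested and called. Of 5182 genes tested, 1814 (35% of those tested) passed an adjusted p of 0.05, with 879 (17%) higher and 935 (18%) lower in the migratory cells. The cells were picked by genes known to travel with this programme, so its rise describes what the rule selected. Levels below are counts per 1000000 summed UMIs (CPM), and differences are log2 fold changes with a standard error (SE) derived from edgeR's F statistic.

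Of the listed genes of the maturation programme outside the rule, 23 of 24 tested were higher and 0 lower, with a median log2 difference of 4.03 against -0.02 over all genes tested. Il12b, a subunit of the T cell polarizing cytokines IL-12 and IL-23, ran from 26.2 to 1169 CPM in the migratory cells (median 334.2) and from 0 to 1.15 CPM in the dermal cells. It was above the dermal value in 7 of 7 libraries, and since dermal cells were almost without it the fitted log2 difference of 9.46 depends on the model's prior count. Il12b was unevenly held: 46 of the 196 cells had a UMI, and the 20 cells with most of it carried 91.3% of its UMIs. Il4i1, a secreted enzyme that breaks down phenylalanine, had 380.5 to 1088 CPM (median 463.7) against 1.64 to 28.5 CPM, a log2 difference of 6.30 ± 0.31 (SE; edgeR adjusted p = 6.88e-08). Tbc1d4, a Rab GTPase regulator, had 1349 to 2269 CPM against 9.33 to 45.03 CPM (log2 6.46 ± 0.22 SE, edgeR adjusted p = 4.33e-09). Mreg, Nudt17, Cacnb3, Serpinb6b, Zmynd15, Slc22a23 and Ikzf4 completed the 10 largest rises, with log2 differences of 6.36 to 8.25.

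Costimulatory and inhibitory genes rose side by side. Among costimulation genes, Cd40, Cd80, Cd83, Cd86 and Icam1 were higher, 5 of 7 tested, and 0 were lower. Cd40, the receptor through which T cells license dendritic cells, had 233.4 to 461.8 CPM (median 329.0) against 29.2 to 56.2 CPM (log2 3.18 ± 0.19 SE, edgeR adjusted p = 2.73e-07). Among regulatory genes 6 of 11 were higher, namely Cd274, Pdcd1lg2, Cd200, Fas, Socs2 and Il4i1, and Socs3 and Tgfb1 were lower. Cd274, which encodes PD-L1, had 412.6 to 1100 CPM (median 490.7) against 32.7 to 101.2 CPM (log2 3.12 ± 0.29 SE, edgeR adjusted p = 9.39e-06). Cd200, whose product restrains myeloid cells, had 78.7 to 404.2 CPM against 0 to 7.45 CPM. In each of these 3 genes the lowest migratory library lay above the highest dermal library. The share of all tested genes without such overlap was not counted, so this separation is not particular to these genes.

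NF-kappaB genes rose in 13 of 18 tested and fell in 0 (median log2 1.00). Relb, the partner of the alternative NF-kappaB pathway, had 244.5 to 513.5 CPM against 70.0 to 89.0 CPM (log2 2.25 ± 0.18 SE, edgeR adjusted p = 3.11e-06), and Nfkb2 rose by 1.01. In the MHC class I pathway, 8 of 10 rose, among them H2-K1, with 1545 to 2859 CPM against 446.2 to 1288 CPM (log2 1.51 ± 0.13 SE, edgeR adjusted p = 6.42e-06). The MHC class II pathway outside the rule was mixed, with Ctsh, Ifi30 and Lgmn higher and H2-DMa, H2-DMb1, H2-DMb2, Ciita and Ctss lower, of 10 tested. H2-DMa, which loads peptide onto class II, had 51.7 to 403.9 CPM against 962.4 to 1407 CPM and fell by 2.16 on the log2 scale (edgeR adjusted p = 0.000298).

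Of the chemokines, Ccl5 and Cxcl16 were higher and Ccl3, Ccl4, Ccl6, Ccl9 and Cxcl2 lower, of 11 tested. Ccl5 spanned 82.0 to 2463 CPM against 2.51 to 36.4 CPM (log2 5.41 ± 0.38 SE, edgeR adjusted p = 1.02e-06), so every library had more in its migratory cells although libraries differed widely. Cxcr4 and Gpr183, receptors that guide cell movement, were higher, by 0.70 and 1.80 on the log2 scale (edgeR adjusted p = 0.00327 and 0.000279). Ccr2, which brings monocyte-derived cells into tissue, had 0 to 33.1 CPM against 168.2 to 379.4 CPM and fell by 4.57 (edgeR adjusted p = 3.67e-05).

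Genes of uptake and pattern recognition were lower in all 9 of the tested members: Mrc1, Cd68, Lyz2, Csf1r, Fcgr3, Fcgr2b, Cd14, Tlr2 and Clec4n. Lyz2, lysozyme, had 39.5 to 1706 CPM against 2263 to 8443 CPM and fell by 3.87 (edgeR adjusted p = 1.86e-05). The dermal cells were chosen by Cd209a and Mgl2, which belong to the type 2 dendritic cell list. Falls of that list thus describe in part what the definitions selected, and the part of this choice in the uptake genes was not tested. Of the type 2 dendritic cell genes outside the definitions, 7 of 8 were lower and 0 higher. Irf4, a transcription factor of that lineage, had means of 101.6 and 100.02 CPM (log2 0.11 ± 0.23 SE, edgeR adjusted p = 0.751). Of 7 type 1 dendritic cell genes, Irf8, Batf3 and Id2 were higher and Naaa and Ppt1 lower. Irf8, a transcription factor, was at 113.5 to 1126 CPM against 10.4 to 50.2 CPM (log2 3.62 ± 0.35 SE, edgeR adjusted p = 1.17e-05). Glycolysis genes were lower in 7 of 13 and higher in 0, and cholesterol synthesis genes higher in 4 of 7 and lower in 0. Dissociation and early response genes were lower in 7 of 13, among them Fos, Fosb and Junb. The 8 fibroblast markers summed to 554.4 to 3123 CPM in migratory and 999.6 to 1362 CPM in dermal cells of the control libraries, and to 74.9 to 1185 CPM and 340.8 to 782.1 CPM in the expanded ones, and the part of other cells' RNA in these differences was not tested.

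**Figure D2:**
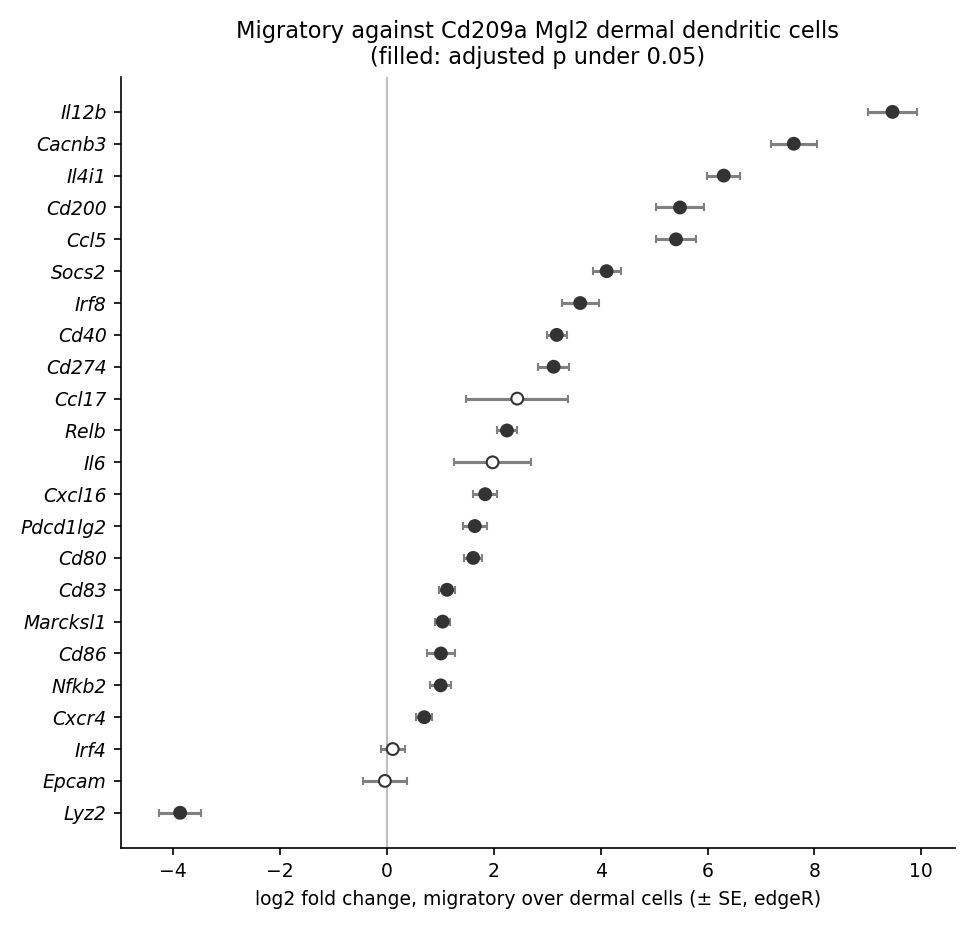
Log2 fold change of listed genes in migratory over dermal dendritic cells of the same 7 libraries, with bars of ± 1 SE from edgeR; filled points passed an adjusted p of 0.05. Il12b, Cacnb3 and Il4i1 stand farthest to the right, Lyz2 is lower, and Irf4 and Epcam lie at 0.

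Within the migratory cells of expanded skin, Ccl17, H2-Eb1, Cd44 and Marco were lower and Fabp5, Tnfrsf9 and Ifitm2 higher. Libraries with at least 10 migratory cells entered, 4 control and 3 expanded, with day as a covariate. Too few libraries reached 20 cells to use that limit as the main one. Of 3311 genes tested with edgeR, 32 (0.966% of those tested) passed an adjusted p of 0.05, with 10 (0.302%) higher and 22 (0.664%) lower in expanded skin. Their values did not overlap between the arms for any of the 32, which held for 14.1% of all genes tested. After thinning to 2000 UMIs, which left 709 genes to test, 15 were called higher and 14 lower. The split was 13 and 13 with at least 5 cells, and 4 and 19 without doublets. These settings shared 13, 15 and 20 of the 32 calls, in that order. The call depends on single libraries: leaving out control day 1 round 2, control day 4 or expanded day 4 left 0 called genes (441, 358 and 354 at an unadjusted p under 0.05), and leaving out expanded day 1 round 2 left 11. Leaving out control day 2 round 2 gave 128 and leaving out expanded day 2 round 1 gave 116, and a fit blocked by pair, which has 2 complete pairs, gave 126.

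Ccl17 (ENSMUSG00000031780), the other CCR4 ligand, had 759.7, 848.7, 3016 and 1588 CPM in the control libraries of day 1 round 1, day 1 round 2, day 2 round 2 and day 4. It had 18.2, 464.4 and 123.1 CPM in the expanded libraries of day 1 round 2, day 2 round 1 and day 4. All 4 control libraries lay above all 3 expanded ones, and Ccl17 fell by 3.81 on the log2 scale (SE 0.43, edgeR adjusted p = 0.018). It passed in 13 of 17 alternatives, 2 of which were the same fit, and their adjusted p reached 0.202. Few cells carried it: 36 of 86 control cells and 31 of 110 expanded cells had a UMI, and in control day 1 round 2 a single cell held 85.9% of its UMIs. The 2 control cells of day 2 round 1, outside the fit, had 0 Ccl17 UMIs. Ccl22, which the rule used, had 999.8 to 3730 CPM in the same control libraries and 811.3 to 1915 CPM in the expanded ones.

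Fabp5 (ENSMUSG00000027533), which carries fatty acids inside cells, had 1244, 1855, 3032 and 1922 CPM in those control libraries and 13518, 7070 and 8434 CPM in the expanded ones. The lowest expanded library lay well above the highest control library, with a log2 difference of 2.21 ± 0.34 (SE, edgeR adjusted p = 0.0312). It passed in 13 of 17 alternatives, 2 of which were the same fit, and their adjusted p reached 0.209. The 2 small expanded libraries outside the fit had 11292 and 6928 CPM. At least 1 Fabp5 UMI was found in 76 of 86 control and 109 of 110 expanded cells. Keratinocytes also express Fabp5. Krt14, a keratinocyte keratin, was at 27.3 CPM in the expanded library with most Fabp5 and at 1835 CPM in expanded day 4, where 1 cell held 98.5% of its UMIs. In the control libraries of the fit Krt14 had 7.93 to 372.6 CPM, and the 8 keratinocyte markers summed to 8.34 to 1275 CPM over the control and to 11.7 to 2896 CPM over the expanded libraries. Their part in the rise of Fabp5 was not tested.

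Tnfrsf9, the costimulatory receptor 4-1BB, had 34.9, 20.7, 150.6 and 95.9 CPM in control and 331.2, 345.4 and 815.1 CPM in expanded libraries (log2 2.55 ± 0.42 SE, edgeR adjusted p = 0.0402). Activated T cells express it too, and the listed T cell markers outside the rule summed to 4.17 to 174.6 CPM in the control libraries and to 1.66 to 95.6 CPM in the expanded ones, with Trac and Lck at 0. Ifitm2, an interferon-induced membrane protein, had 327.4 to 592.0 CPM in control and 1118 to 1881 CPM in expanded libraries (log2 1.60 ± 0.25 SE, edgeR adjusted p = 0.0341). The other 7 genes that rose were Dnah2, Acadm, Cacna1s, Myo10, Cirbp, Rhoc and Rbm3. Acadm, an enzyme of fatty acid oxidation, rose by 2.15, and the cold-inducible RNA binding genes Cirbp and Rbm3 rose by 1.69 and 1.24.

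H2-Eb1, an MHC class II beta chain outside the rule, had 9138, 5626, 4487 and 3009 CPM in control and 2288, 1854 and 603.8 CPM in expanded libraries. It fell by 1.83 (SE 0.27, edgeR adjusted p = 0.0312) and was the 1 called gene among 9 tested of the class II list. Cd44, a hyaluronan receptor, had 829.5, 720.3, 412.2 and 579.4 CPM in control and 158.0, 195.1 and 108.1 CPM in expanded libraries (log2 -2.04 ± 0.30 SE, edgeR adjusted p = 0.0312). Beside Ccl17 and H2-Eb1, genes shared with dermal dendritic cells and other myeloid cells also stood lower without a call. Mgl2, a lectin of dermal dendritic cells, had 372.6 to 711.6 CPM in control and 13.3 to 286.8 CPM in expanded libraries (log2 -3.06, edgeR adjusted p = 0.106), and Lyz2 differed by -3.11 (edgeR adjusted p = 0.092). Both passed in the fit blocked by pair (edgeR adjusted p = 5.2e-05 and 8.9e-05). The 6 tested type 2 dendritic cell genes had a median of -1.42 and the 7 of uptake and pattern recognition -1.59, with 0 above 0 in either list, and their part in the fall of Ccl17 and H2-Eb1 was not tested. Plek, Ahnak, Lmna, Fgl2, Myof, H2-M2 and Marcksl1 were among the other genes that fell, with Marcksl1 at 611.6 ± 64.8 CPM (SD, n = 4) in control and 304.8 ± 13.3 CPM (SD, n = 3) in expanded cells.

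Selenop, Serpinh1 and Ccl8, which fell by 3.91, 3.28 and 5.08, are also expressed by fibroblasts or macrophages. The fibroblast markers had the sums given above, and the macrophage markers summed to 111.0 to 1470 CPM in the control and to 100.3 to 405.9 CPM in the expanded libraries. No fibroblast or macrophage marker was at 0 in all migratory cells. The 6 tested fibroblast markers outside the rule had a median log2 difference of -2.60 without a call. The rule limited Col1a2 and Col1a1, which as a description stood at 137.5 to 685.7 and 162.6 to 424.1 CPM in the control and at 8.32 to 130.7 and 3.33 to 161.0 CPM in the expanded libraries. The part of these RNAs in the fall of the 3 genes was not tested.

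Of 25 tested genes of the maturation programme outside the rule, 1 rose (Fabp5) and 2 fell (Ccl17, Marcksl1), with a median log2 difference of 0.27 against 0.00 over all genes tested. Of 8 costimulation genes and 17 NF-kappaB genes none passed the test. With 0.966% of all genes tested called, lists of this size would mostly hold no call, so these counts do not show the lists unchanged. On simulated counts the test recovered 21.2% of genes changed by 1 on the log2 scale. Cd200 had 100.4, 78.7, 146.6 and 133.4 CPM in control and 297.8, 240.0 and 404.2 CPM in expanded libraries (log2 1.30 ± 0.27 SE, edgeR adjusted p = 0.0682). Il4i1 had 380.5 to 463.7 CPM in control and 686.9 to 1088 CPM in expanded libraries (log2 0.94 ± 0.19 SE, edgeR adjusted p = 0.0682). In both genes the groups did not overlap, which held for 14.1% of all genes tested, and neither passed the threshold. In the fit blocked by pair, Cd200, Cd86 and Socs2 passed as higher and Ccl5 as lower (edgeR adjusted p = 0.0172, 0.0403, 0.0191 and 5.2e-05), while Rhoc, Myo10 and Trps1 lost their call (0.0786, 0.0517 and 0.0974). Cd274, Cd83, Pdcd1lg2 and Nfkb2 had log2 differences of 0.42, -0.09, 0.03 and 0.07, whose sign changed under some alternatives.

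**Figure D3:**
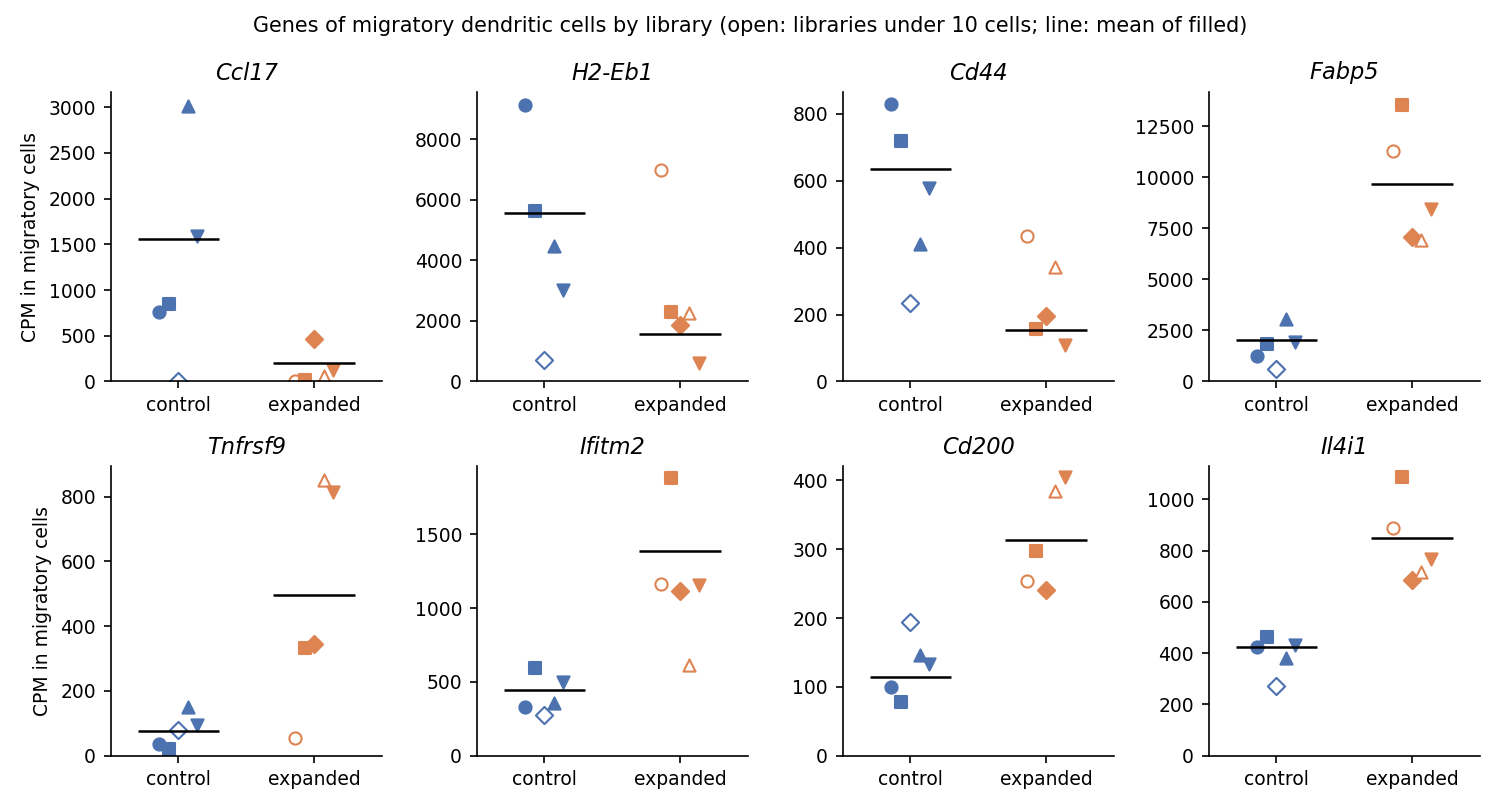
CPM of 8 genes in migratory dendritic cells, 1 point per library, with the marker shape giving the day and round as in the plot of shares; open points are libraries with fewer than 10 migratory cells and lines are means of the filled points. Filled control and expanded points do not overlap in any of the 8 panels, as in 14.1% of all genes tested. Cd200 and Il4i1 did not pass the test.

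Marco (ENSMUSG00000026390), a scavenger receptor for particles and bacteria, was the 1 gene of 6504 (0.0154% of those tested) called for a different response to expansion in migratory and dermal dendritic cells. In the migratory cells it had 52.4, 82.8, 63.4 and 91.7 CPM in the control libraries and 0, 1.95 and 3.33 CPM in the expanded ones. In the dermal cells of the same libraries it had 47.3, 63.2, 30.9 and 96.9 CPM in control and 88.1, 102.6 and 274.7 CPM in expanded skin. The log2 difference between the effects was -6.60 ± 0.52 (SE, edgeR adjusted p = 0.000473). Marco passed in 13 of the 13 alternatives that tested it, 2 of which were the same fit. The counts were small: 18 of 86 control and 4 of 110 expanded migratory cells had a UMI, and 3 of the 6 expanded UMIs came from the 5 cells of expanded day 1 round 1, outside the fit, at 54.5 CPM. The migratory rule set no limit on the C1q genes, unlike the dermal definition. Macrophage markers had the sums given above, and the part of macrophage RNA in the fall of Marco was not tested. For Ccl17, Fabp5 and Tnfrsf9 the difference between the effects was not called (edgeR adjusted p = 0.408, 0.84 and 0.373). Its log2 estimates were -4.07 ± 1.35, 0.31 ± 0.34 and 4.42 ± 1.37 (SE), so of these genes only Fabp5 had a small difference. On simulated counts this test recovered 8.60% of genes changed by 1 on the log2 scale and 61.3% of those changed by 2. A gene not called is thus not shown to respond alike in both kinds.

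**Figure D4:**
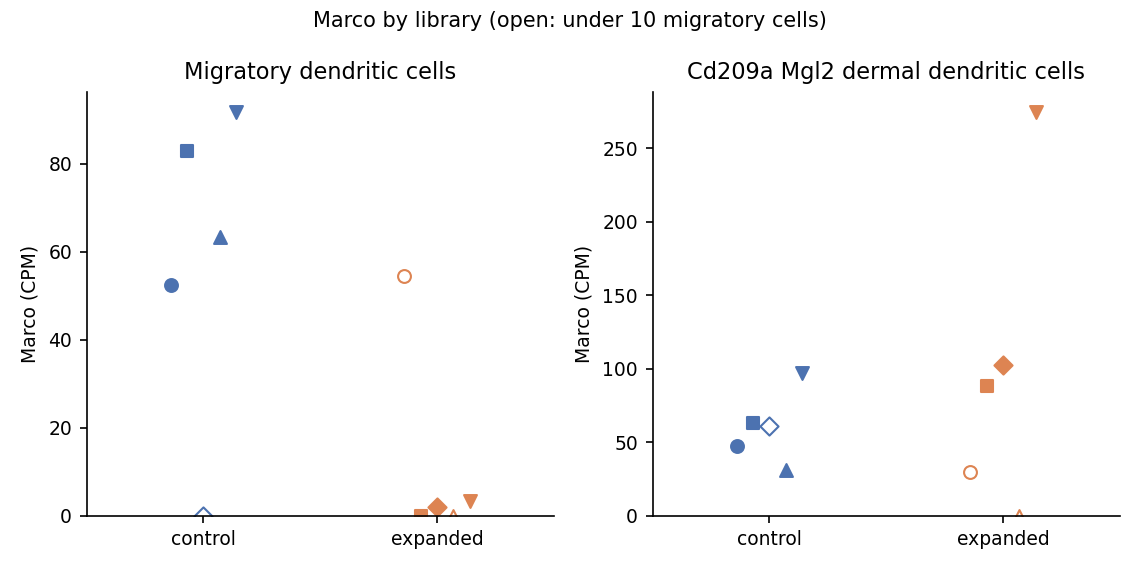
Marco CPM by library in migratory cells (left) and dermal dendritic cells (right), control in blue and expanded in orange; open points are libraries with fewer than 10 migratory cells. The filled expanded points are at 0 to 3.33 CPM on the left and at 88.1 to 274.7 CPM on the right.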

How the data were processed

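UMI counts per gene and barcode were deposited without normalization; the authors made them with Cell Ranger 6.1.2 on mm10, per the submitters' processing notes. A barcode was kept if it had 200 genes and 500 UMIs or more and no more than 10% mitochondrial UMIs. The members and gene lists were chosen with earlier results of these data known. Libraries, which pool mice, were the replicates, and HTODemux (Seurat 5.3.0, quantile 0.99) gave cells to mice. Doublets (Scrublet in scanpy 1.11.5, or more than 1 hashtag) stayed in and were left out as an alternative. Shares were compared by permutation. Counts summed per library went through filterByExpr and TMM scaling into edgeR 4.0.16 (quasi-likelihood test, Benjamini-Hochberg over all genes tested), with DESeq2 1.42.0 as an alternative. On simulated counts the test of expanded against control recovered 21.2% of genes changed by 1 on the log2 scale and 95.5% of those changed by 2, among 3375 genes, with 6 false calls. The simulation gave every gene the same spread and had no effects of day or library beyond depth. Only genes with a mean count of at least 10 were changed, so recovery in the real data may be lower.

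Named genes were the 10 largest called rises and falls with a mean of at least 20 CPM in the higher group and the same direction in every complete pair or library, called members of the lists, the 10 smallest p-values of the difference of effects, and a set of display genes. By the labels, the libraries of a pair share day and sequencing round. Deviations from the arm means correlated at 0.281 and 0.243 in the 2 complete pairs. Control and expanded libraries of different pairs correlated at -0.330 to 0.202. The number of cells per library limits precision. Alternatives covered scaling, filters, thinning to 2000 UMIs, doublets, thresholds, covariates and leaving out each library. In the gene tests the limit of 20 cells removed only control day 1 round 1, so it repeats the fit without that library. The count over the list of chemoattractant receptors is not reported here.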

Additional observations from a re-analysis of the deposited data

Results flagged for a closer look

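In control day 2 round 1, migratory cells were 0.315% of immune cells, with the other 4 control libraries at 0.945% to 1.14%; the gap to its neighbour was large for the range of the group. That library held 2 migratory cells. Marco had a log2 difference of -6.60 between the expansion effects in migratory and dermal dendritic cells. In all, 28 groups of libraries were examined for a value far from the others, and chance gives about 1 in 20.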

How the results depend on the processing

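Few cells per library limit these results, and the cause of the changes below was not tested. The share among MHC class II cells kept its direction under every alternative run and passed in all but the replicate block, which cannot pass with 5 pairs (difference 3.83 percentage points, adjusted p = 0.1875). Leaving out each library gave differences of 3.11 to 4.62 points for that share, 0.228 to 0.456 among kept cells, 0.260 to 0.734 among immune cells and 24.0 to 35.1 among migratory and dermal cells. The highest values among kept and immune cells, both without expanded day 1 round 1, passed. The share among migratory and dermal cells was 28.1 points higher under the replicate block (exact permutation p = 0.125) and lost its call without 6 single libraries (exact permutation p = 0.0635). Per mouse, day 1 alone gave 2.90 points and leaving out a day 3.12 to 4.59.

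Expanded against control, the migratory cells had 314 called genes with no filter on low counts, 78 by DESeq2, 126 under the replicate block, 10 with no covariate, 13 with mice as units, and 0 to 128 without single libraries. The fit with mice as units held only mice with at least 10 migratory cells and was blocked by day and round. Both arms had such mice only in day 1 round 2 and day 4, so few animals carry that contrast. Migratory against dermal cells, thinning gave 345 calls of 902 genes tested and leaving out libraries 1468 to 1692. For the difference of effects the counts were 136 with no filter, 25 by DESeq2, 7 with at least 5 cells (chosen after seeing the data) and 1 to 13 without single libraries.

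Genes that were not called changed sign in places (log2). In expanded against control, Pdcd1lg2 was -0.20 with at least 20 cells, -0.20 without doublets, -0.30 under the replicate block, -0.35 with mice as units and -0.55 to 0.52 without single libraries. Nfkb2 was -0.027 with at least 20 cells, -0.018 with at least 5 and -0.18 to 0.26 without single libraries. Cd83 was 0.0056 after thinning, 0.15 under the replicate block and -0.32 to 0.21 without single libraries. Cd274 was -0.064 and Irf8 -0.21 with mice as units, and without single libraries Cd274 was -0.048 to 0.70 and Cd209a -8.10 to 0.080. Between the cell kinds, Irf4 was -0.069 with no filter, -0.00019 with at least 5 cells and -0.023 to 0.34 without single libraries, and Epcam -0.33 to 0.28.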

Other observations

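A further 27 cells met the conditions on Ccr7, Fscn1, Ccl22, MHC class II, the Cd3 genes and collagen but carried at least 2 Cd207 UMIs. Cd207 marks Langerhans cells and some dermal dendritic cells, and no limit on Xcr1 and Clec9a was set here. These cells numbered 15 in control and 12 in expanded skin, beside 598 control and 265 expanded cells with at least 2 Cd207 UMIs and no Ccr7. No cell failed the rule only through Xcr1 and Clec9a, and the type 1 dendritic cells without Ccr7 numbered 16 in all libraries. The Cd3 genes alone left out 7 cells. The collagen limit alone left out 11 cells, with 4, 3, 0, 2 and 2 in the control libraries, in the order above, and 0 in each expanded library. The limit on MHC class II UMIs alone left out 13, with 0, 1, 0, 2 and 1 in the control and 0, 0, 1, 1 and 7 in the expanded libraries. The part of these limits in the differences between the arms was not tested.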
